A study of Caenorhabditis elegans with 2 samples.

Results

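The 10 synaptic and neurosecretory genes described here were taken by name from the 19973 protein-coding genes of the WBcel235 annotation. They are snb-1, unc-64, ric-4, snt-1, unc-13, unc-31, syd-2, ric-19, egl-3 and egl-21, and all 10 were found. Chromatin immunoprecipitation and sequencing (ChIP-seq) of eGFP-tagged LSY-2, a zinc finger protein, was performed on whole L4 larvae, the last larval stage, in 2 biological replicates. The worms were of strain OP240, with genotype unc-119(ed3) III; wgIs240, and of both sexes mixed. wgIs240 is the inserted lsy-2 transgene, and both replicates carried it along with the unc-119 mutation. There is 1 group only, so no condition was compared. The labels name lsy-2 as the target of the antibody. Worms without the tag were not analysed here.

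The values are the authors' peak lists. Each replicate has a list of candidate regions, a further candidate list comes from both replicates pooled, and the "optimal" list holds the peaks kept at a threshold on the irreproducible discovery rate. The optimal list equals the top 1563 of the 22035 pooled candidates, and its lowest signal is 60.3. By its label the pooled candidate list holds peaks and background, so a weak candidate can be background. Its deposited -log10 q values run from 3.53 down to 0.0177. The replicate lists held 25003 regions for replicate 1 and 24002 for replicate 2, on separate signal scales. Signals of different genes were therefore compared within a list, and a ratio between the replicates is read only against the same ratio at other peaks. Read depth is unknown, and in whole larvae strong occupancy in few cells and weak occupancy in many cannot be told apart.

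Neurons release their signals from 2 kinds of vesicle. Synaptic vesicles carry classical transmitters and fuse at the active zone when a SNARE protein on the vesicle pairs with SNARE proteins on the plasma membrane. Dense core vesicles carry neuropeptides, which are cut from larger precursors inside the vesicle and then released by a related machinery. LSY-2 is best known from the ASE taste neurons, in which it helps to set the difference between the left and right cell.

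Peaks of the optimal list lay near 5 of the 10 genes. The summit was within 500 bp of a transcript start at the active zone gene syd-2, the dense core vesicle gene ric-19 and the peptide processing gene egl-21. It was further upstream, but within 2 kb, at the peptide processing gene egl-3 and the syntaxin gene unc-64. The genes snb-1, ric-4 and unc-13 had candidates of intermediate rank in the pooled list and both replicates. The genes snt-1 and unc-31 had only weak ones. No optimal summit lay in an intron of any of the 10 genes.

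The share within 500 bp was 3 of 10 among these genes, against 4.78% of all protein-coding genes (954 of 19973). Within 2 kb it was 5 of 10, against 8.65% of all protein-coding genes. Genes with a locus-type symbol, which all 10 members have, reached 6.09% within 500 bp and 10.6% within 2 kb. Several annotated starts can widen the searched sequence, and 7 of the members have more than 1 start. The 2 kb windows covered 4.001 kb at a member with 1 start. They covered little more at unc-64 (4.004 kb), snt-1 (4.006 kb) and syd-2 (4.294 kb), and up to 12.82 kb at unc-31. All 5 optimal summits lay upstream of the most upstream start of their gene. Among genes with several starts 13.7% had an optimal summit within 2 kb, and among genes with 1 start 6.85%. The members were chosen with earlier results of these lists known, so the counts describe these genes and no test of them was made.

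The peak centres upstream of 4 of these genes are shown to let the occupied sequence be compared. Each window is 101 bp on the ce11 build, centred on the optimal summit and written on the strand of the gene. Capitals mark matches to GAGAGA or CTGCGT or CGTCTC on either strand, 3 short sequences that were more frequent at the summits of the whole list. CGTCTC and TCTCTC can overlap in the letters TCTC. The ric-19 window is not printed.
syd-2 (chrX:10555627-10555727, minus strand): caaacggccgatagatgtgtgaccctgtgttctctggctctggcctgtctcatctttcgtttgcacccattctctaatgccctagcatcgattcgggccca
egl-21 (chrIV:10481858-10481958, minus strand): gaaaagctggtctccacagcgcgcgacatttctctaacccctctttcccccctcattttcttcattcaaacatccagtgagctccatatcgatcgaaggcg
egl-3 (chrV:10174836-10174936, minus strand): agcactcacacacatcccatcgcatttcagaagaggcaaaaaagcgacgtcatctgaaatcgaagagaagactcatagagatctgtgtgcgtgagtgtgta
unc-64 (chrIII:13275936-13276036, plus strand): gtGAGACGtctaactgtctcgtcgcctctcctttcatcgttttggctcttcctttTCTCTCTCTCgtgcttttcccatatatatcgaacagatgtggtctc

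Of the 5 member windows in the optimal list, only that of unc-64 held any of the 3 sequences. It held 3 overlapping copies of TCTCTC in the run just downstream of the summit, and 1 copy of GAGACG, the reverse complement of CGTCTC, near the upstream edge. Over all 1563 optimal summits, 47% of windows held at least 1 of the 3. The separate shares were 29.8% for GAGAGA, 18.7% for CTGCGT and 20.8% for CGTCTC. Windows centred 500 bp to either side held at least 1 in 10.6% of cases. Those windows also had a lower median GC content, 35.6% against 47.5% at the optimal summits. These sequences were taken from an earlier count over the same peaks, so the shares describe the lists. The absence of a match says only that these letters are not in the window.

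Base composition differed among the 5 windows. GC content was 53.5% at syd-2, 50.5% at egl-21, 46.5% at unc-64, 45.5% at egl-3 and 39.6% at ric-19, where the median of all optimal summits was 47.5%. The windows of the strongest candidates at the other 5 genes held none of the 3 sequences, and their GC content was 30.7% to 42.6%. The median of pooled candidates outside the optimal list was 38.6%, and 15.9% of their windows held at least 1 of the sequences.

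**Figure D1:**
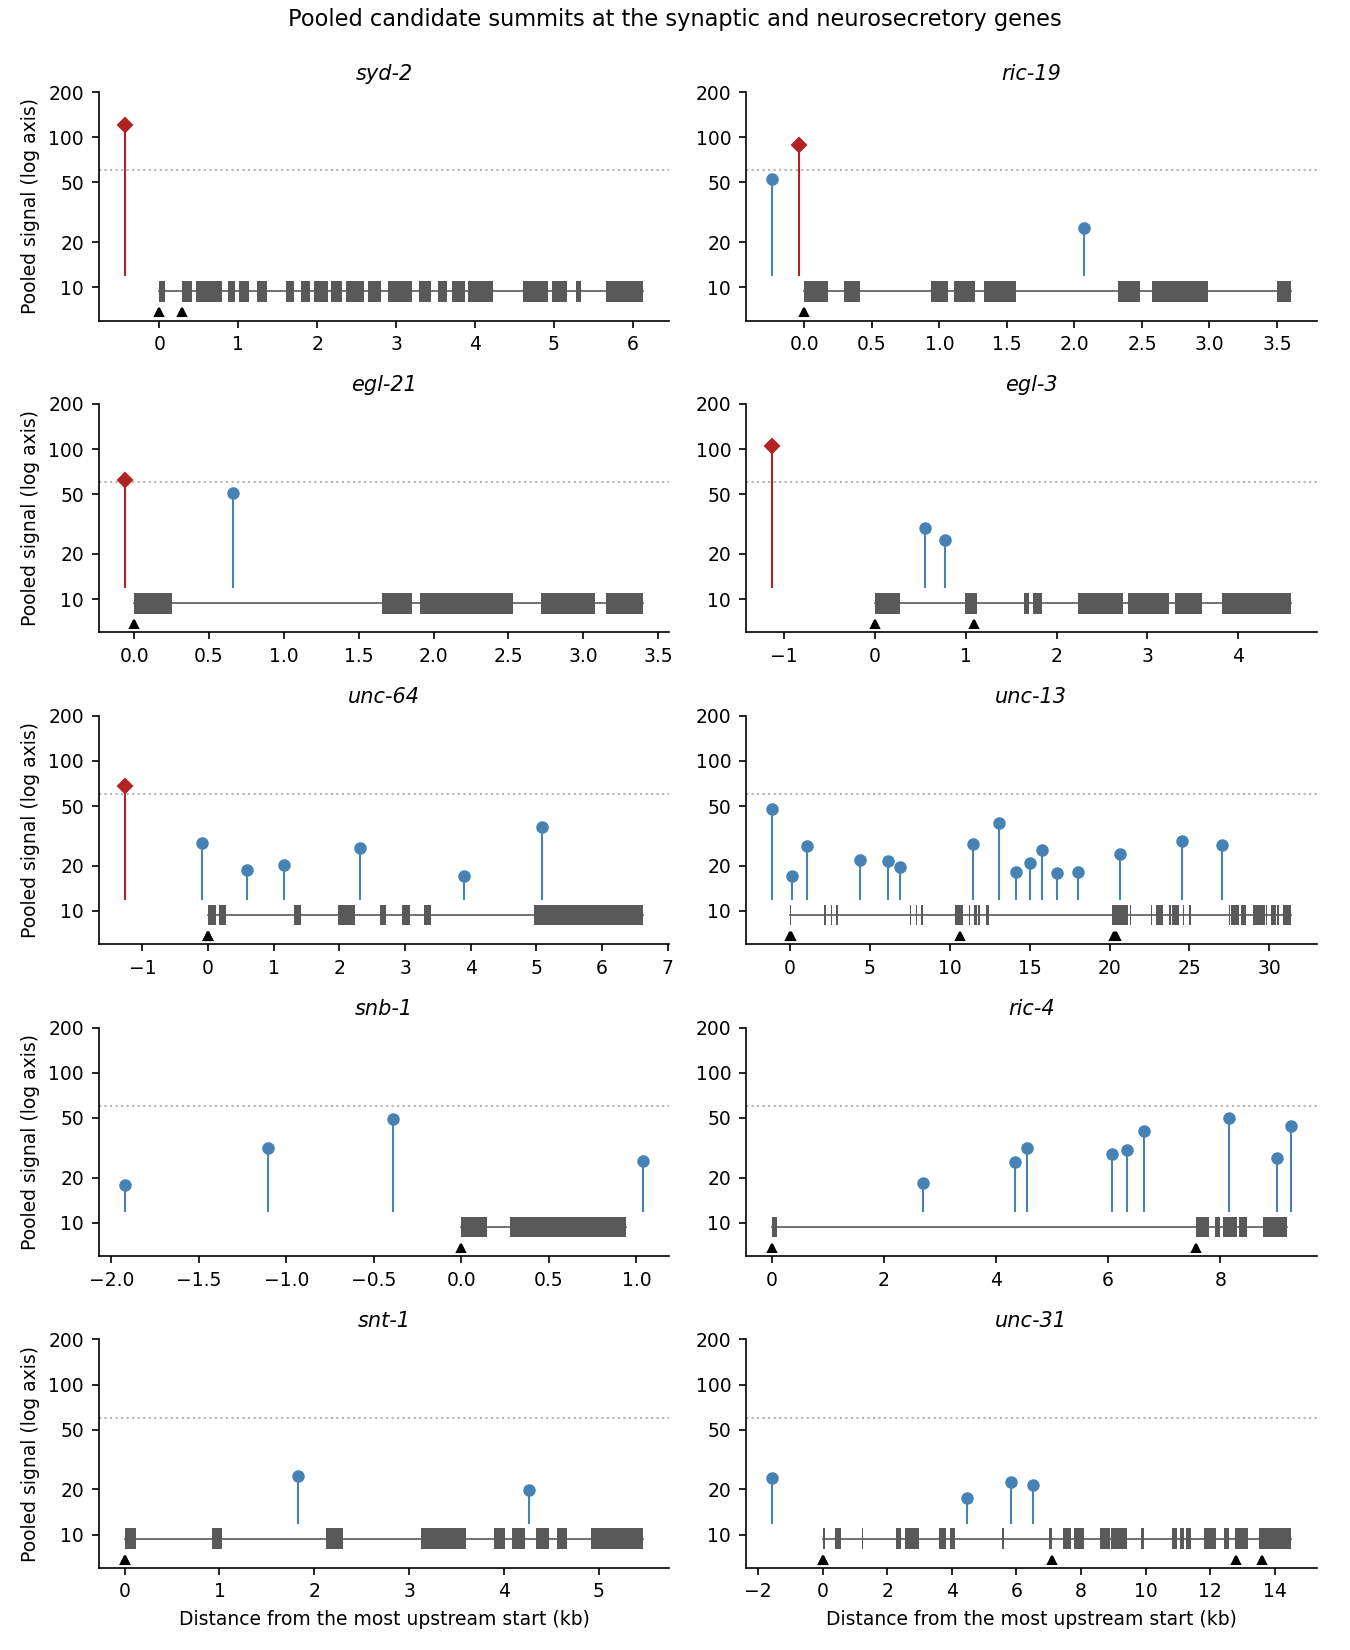
Each panel shows a gene with its exons (grey boxes, all transcripts merged), its annotated transcript starts (triangles) and the pooled candidate summits within 2 kb of a start or in an intron. The x axis is distance from the most upstream start in kb, on a scale of its own per panel, and the y axis is pooled signal on a log scale. Red diamonds are optimal peaks, blue circles are other candidates and the dotted line is the lowest optimal signal, 60.3. All 5 red diamonds lie upstream of the gene.

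The core fusion machinery is made of 3 SNARE proteins, and of their genes only unc-64 had an optimal peak within 2 kb. The gene unc-64 (WBGene00006798, chromosome III, 13277258 to 13283887) encodes syntaxin, a SNARE of the plasma membrane. Its optimal peak had a pooled signal of 68.4 (rank 1237), with signals of 25.2 in replicate 1 and 39.9 in replicate 2. Those are rank 2308 and rank 1151 of the replicates' own lists, so the site was within the 1563 strongest candidates of replicate 2 only. The summit lay 1272 bp upstream of the start, and the replicate summits were 8 bp apart.

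The unc-64 summit was nearer to another annotated transcript than to unc-64 itself. The noncoding RNA gene F56A8.10 starts 974 bp downstream of it on the same strand, and no other protein-coding start lay within 2 kb. A second candidate sat at the unc-64 start itself, 87 bp upstream, but it was weak, with a pooled signal of 28.1 (rank 7449). Its counterpart in replicate 1 had a signal of 17.1 (rank 5760), and replicate 2 listed none within 500 bp of the start. Inside the gene, 5 pooled candidates fell in introns of at least 1 transcript. The strongest had a signal of 36.3 (rank 4236) and lay in an untranslated exon of another transcript.

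The other plasma membrane SNARE gene, ric-4 (WBGene00004364, chromosome V, 10261131 to 10270314), encodes the worm SNAP-25. It had no optimal peak, and its strongest candidate lay inside the gene. That summit was in a coding exon, 592 bp downstream of the inner of its 2 starts, with a pooled signal of 49.6 (rank 2211). Signals there were 22.9 in replicate 1 (rank 2869) and 20.8 in replicate 2 (rank 4351), with summits 6 bp apart. The protein-coding start of sri-18 was 1591 bp away from that pooled summit. No pooled candidate lay within 500 bp of either ric-4 start. In all, 9 pooled candidates met the 2 kb or intron criterion at ric-4, and 6 of them were intronic.

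The vesicle SNARE synaptobrevin is encoded by snb-1 (WBGene00004897, chromosome V, 6655562 to 6656501), the shortest of the 10 genes. Its strongest candidate lay 393 bp upstream of the single start with a pooled signal of 49.4 (rank 2223). It was listed at 26.8 in replicate 1 (rank 2008) and at 23.2 in replicate 2 (rank 3390). Both replicates therefore held the site, outside their 1563 strongest candidates, and their summits were 85 bp apart. The next protein-coding start, that of syx-18, was 1445 bp away.

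Release is set off by calcium through synaptotagmin, and vesicles are first made ready by UNC-13. The synaptotagmin gene snt-1 (WBGene00004921, chromosome II, 6810963 to 6816433) had 2 pooled candidates, both intronic. The stronger was a summit 1827 bp downstream of a start, with a pooled signal of 24.7 (rank 10190) and a signal of 20.6 in replicate 2 (rank 4441). Replicate 1 listed no candidate at snt-1 within 2 kb of a start or in an intron. The site therefore rests on replicate 2.

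The gene unc-13 (WBGene00006752, chromosome I, 7422785 to 7454116) is the longest of the 10 at 31.3 kb and has 5 annotated starts. Its strongest candidate lay 1146 bp upstream of the first start, with a pooled signal of 48.04 (rank 2356). Signals were 22.7 in replicate 1 (rank 2919) and 22.1 in replicate 2 (rank 3786), with summits 26 bp apart. The position is like that of the unc-64 and egl-3 peaks, with a signal below the optimal list. A further 15 pooled candidates were in an intron of at least 1 transcript, the strongest with a signal of 38.8 (rank 3679). The candidate of rank 11088 among them lay in a coding exon of another transcript.

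UNC-31 is the worm CAPS protein, which acts in the release of dense core vesicles. The gene unc-31 (WBGene00006767, chromosome IV, 12773867 to 12788354) had the weakest strongest site of the 10. It lay 1575 bp upstream of the first start with a pooled signal of 23.9 (rank 10958) and was rank 12406 in replicate 2. Replicate 1 had no overlapping candidate there, and its own strongest at unc-31 lay 158 bp downstream of a start with a signal of 12.5 (rank 12572). The replicates therefore placed their strongest unc-31 candidates at different positions, and the deposited -log10 q value of the pooled one was 0.22, against 3.53 at every optimal peak.

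The strongest peak among the members was at syd-2 (WBGene00006364, chromosome X, 10549106 to 10555239), which encodes liprin-alpha, a scaffold protein that organises the presynaptic active zone. Its pooled signal was 121 (rank 479), with signals of 50.3 in replicate 1 (rank 616) and 70.6 in replicate 2 (rank 434). The site was within the 1563 strongest candidates of both replicates. A stronger pooled candidate within 2 kb of a start was found at 682 of the 19973 protein-coding genes.

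The syd-2 summit lay 438 bp upstream of the outer of its 2 starts, the farthest of the 3 members inside the 500 bp window, and 49 bp separated the replicate summits. It fell in an exon of the noncoding RNA gene F59F5.9, 67 bp downstream of that gene's start and on the same strand as syd-2. No other protein-coding start lay within 2 kb. No pooled candidate was listed in a syd-2 intron.

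RIC-19 acts in the maturation of dense core vesicles. The gene ric-19 (WBGene00004368, chromosome I, 3778089 to 3781690) had a peak closest to its start among the members, 40 bp upstream, with a pooled signal of 88.8 (rank 800). Signals were 47.8 in replicate 1 (rank 674) and 40.7 in replicate 2 (rank 1094), with summits 41 bp apart. The peak also lay 388 bp upstream of the divergent protein-coding gene pmlr-1, so it cannot be assigned to ric-19 alone. A second candidate, 242 bp upstream of the ric-19 start, had a pooled signal of 52.5 (rank 2006) and lay outside the optimal list.

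The last 2 genes encode enzymes that act in sequence on neuropeptide precursors, EGL-3, a proprotein convertase that cuts them, and EGL-21, a carboxypeptidase that trims the cut ends. The gene egl-21 (WBGene00001189, chromosome IV, 10478442 to 10481844) had a peak 64 bp upstream of its single start with a pooled signal of 62.0 (rank 1487), close to the lowest optimal signal of 60.3. Signals were 31.8 in replicate 1 (rank 1428) and 31.3 in replicate 2 (rank 1807), with summits 4 bp apart. The site was within the 1563 strongest candidates of replicate 1 only. One other protein-coding start lay within 2 kb of the summit, that of F01D4.5, 1686 bp away on the same strand.

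Next to that peak, egl-21 had a candidate in its first intron, 660 bp downstream of the start, with a pooled signal of 50.9 (rank 2098). It was listed in replicate 1 at 25.6 (rank 2217) and in replicate 2 at 25.4 (rank 2738). This was the strongest intronic candidate among the 10 genes in the pooled list, and it lay outside the optimal list.

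The gene egl-3 (WBGene00001172, chromosome V, 10169177 to 10173753) had the second strongest peak of the members, with a pooled signal of 105 (rank 601). Signals were 46.2 in replicate 1 (rank 709) and 61.03 in replicate 2 (rank 564), and the summits were 20 bp apart. The site was within the 1563 strongest of both replicates, but lay 1133 bp upstream of the outer egl-3 start and so outside the 500 bp window.

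Noncoding genes lay closer to the egl-3 peak than egl-3 does. Its summit was 185 bp upstream of the start of C51E3.12 and 308 bp downstream of that of C51E3.11, which are annotated as noncoding RNA genes on opposite strands. No other protein-coding start lay within 2 kb. Near the egl-3 starts themselves, the only pooled candidate within 500 bp was intronic and weak, with a signal of 24.8 (rank 10049).

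**Figure D2:**
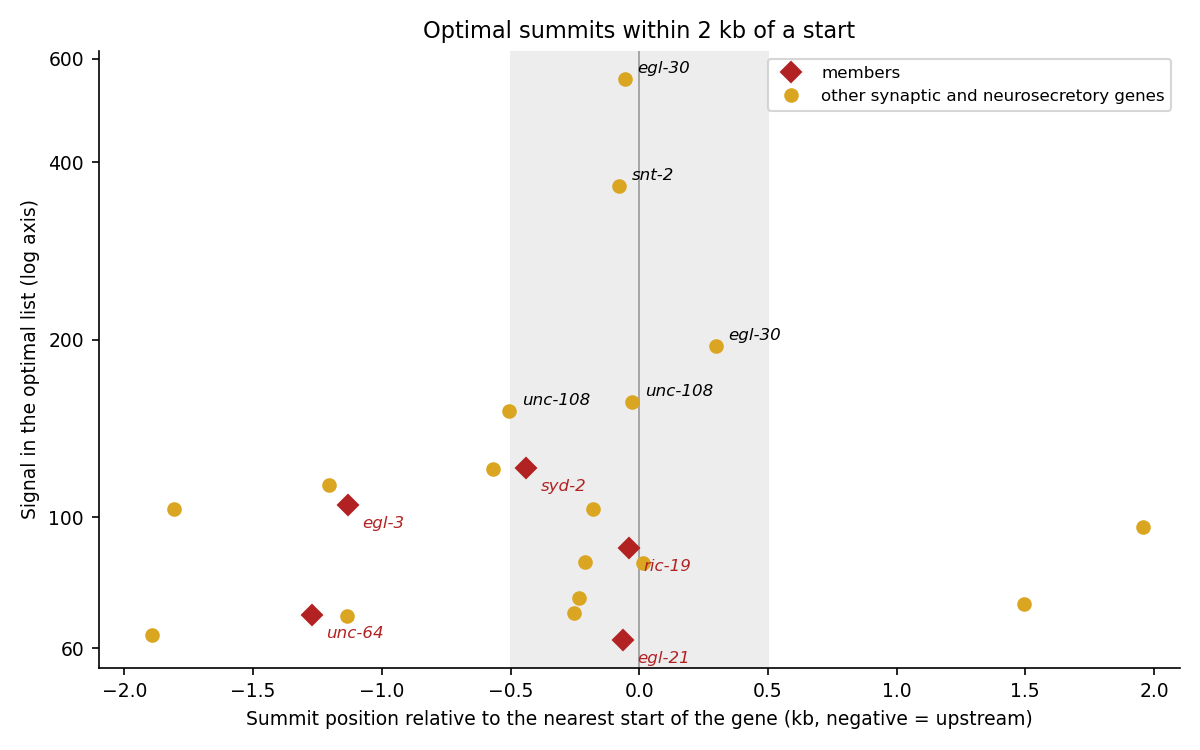
Each point is an optimal summit within 2 kb of a start, by its position relative to the nearest start of the gene in kb (x axis, negative is upstream) and its signal on a log scale (y axis). Red diamonds are the 5 members, yellow circles the other synaptic and neurosecretory genes, and the grey band is the 500 bp window. All 5 members lie upstream of their start, and none reaches the signals of snt-2 (364.5) or the stronger egl-30 summit (554.5).

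The 5 optimal summits were all upstream of the gene, from 40 to 1272 bp, and differed in replicate support. The peaks at syd-2, ric-19 and egl-3 were within the 1563 strongest candidates of both replicates, that at unc-64 in replicate 2 only and that at egl-21 in replicate 1 only. Replicate summits were 4 to 49 bp apart, where the median over 1560 optimal peaks that each replicate also listed was 23.5 bp (quartiles 9 and 49.2 bp). The ratio of replicate 2 to replicate 1 signal was 1.58 at unc-64, 1.40 at syd-2, 1.32 at egl-3, 0.984 at egl-21 and 0.853 at ric-19. Over the same 1560 peaks its median was 1.17 (quartiles 0.950 and 1.42), so unc-64 lay above the upper quartile and ric-19 below the lower.

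**Figure D3:**
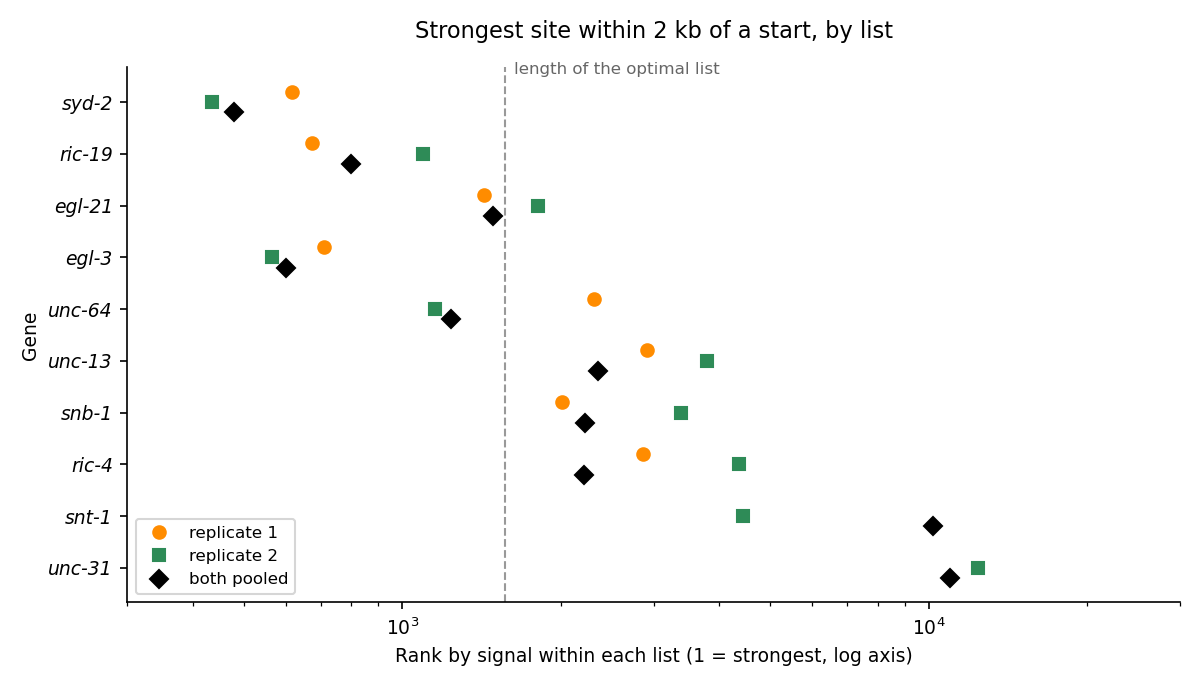
For each gene, the rank by signal of its strongest pooled candidate within 2 kb of a start (black diamonds) is shown with the rank of the overlapping candidate in replicate 1 (orange circles) and replicate 2 (green squares). The x axis is logarithmic, 1 is the strongest region of a list, and the dashed line marks 1563, the length of the optimal list. The genes syd-2, egl-3 and ric-19 lie left of the line in all 3 lists, while snt-1 and unc-31 have no overlapping candidate in replicate 1.

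Counting weaker sites, 7 of the 10 genes had a pooled candidate within 500 bp of a start, against 29.8% of all protein-coding genes. Those without were ric-4, snt-1 and unc-31. The pooled list and both replicates each had a candidate within 500 bp at 6 of the 10 genes, against 19.7% of all protein-coding genes. These candidates were counted per gene and need not be at the same site. The same 6 genes remained when overlap of at least 1 bp with the pooled candidate was required. At unc-13 and egl-3 the count rests on weak pooled candidates, the best of rank 11088 and rank 10049. Within 2 kb all 10 had a pooled candidate, against 53.5%. By the same count per gene, 9 of 10 had one in all 3 lists, against 41.5%, with snt-1 the exception.

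Introns of the members held candidates below the optimal list only. A summit counted as intronic if it lay in an intron of at least 1 transcript, and some lay in an exon of another. An intronic pooled candidate was present in 8 of the 10 genes, against 18.7% of the 19286 protein-coding genes with an intron, the exceptions being snb-1 and syd-2. Since long introns hold more candidates, the number per length is the closer comparison. The members had 35 intronic summits in 60.9 kb of intron, or 5.75 per 10 kb, against 2.13 per 10 kb over all protein-coding genes. The -log10 q value of the 35 ran from 2.45 at egl-21 down to 0.02 at unc-13. The density therefore counts weak candidates that can be background. A list of 80 other synaptic and neurosecretory genes had 3.47 per 10 kb, and 47 of the 80 (58.8%) had an intronic pooled candidate. Without unc-13, which supplied 15 of the 35, the value was 5.66 per 10 kb. By gene the density ran from 0 at snb-1 and syd-2 to 8.89 at unc-64 and 9.94 at egl-3, where it rests on only 2 summits. An optimal summit in an intron was found at 0 of 10 members, against 1.35% of genes with an intron. At that share a count of 0 among 10 genes is no sign of a lack.

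The remaining pathway was covered by 80 other genes of transmitter release, vesicle cycling, transmitter synthesis and neuropeptide processing. An optimal summit lay within 500 bp of a start at 8 of the 80 (10%), against 4.78% of all protein-coding genes, and within 2 kb at 14 of the 80 (17.5%), against 8.65%. Within introns it was 8 of 80, against 1.35%, and per length of intron 17.2 summits per Mb, against 9.75 over all protein-coding genes. The pooled list gave 42 of 80 (52.5%) within 500 bp, against 29.8%, and 67 of 80 (83.8%) within 2 kb, against 53.5%.

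Of the 8 with a peak within 500 bp, 4 belong to the dense core vesicle pathway. They were grouped after the values were seen, and the share of that pathway with a peak was not counted. Other genes of it among the 80, such as hid-1, rund-1, cccp-1 and pamn-1, had no optimal summit within 500 bp. The gene sbt-1, whose product is a chaperone of the EGL-3 convertase, had a signal of 83.9 (rank 873), and aex-5, which encodes another convertase, had 83.7 (rank 876). The dense core vesicle gene ida-1 had 73.0 (rank 1090), and the small GTPase gene unc-108, which acts in dense core vesicle maturation, had 156.6 (rank 332). Of these 4, only unc-108 was among the 1563 strongest candidates of replicate 1, where sbt-1 had rank 1564, ida-1 rank 1985 and aex-5 rank 2262. With replicate 1 alone the count over the 80 genes was therefore 5.

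The other 4 were led by egl-30, which encodes a Gq alpha subunit and had 2 summits within 500 bp of its starts, at 554.5 (rank 51) and 195.2 (rank 221). The synaptotagmin genes snt-2 and snt-4 had 364.5 (rank 96) and 68.9 (rank 1214), and the rabphilin gene rbf-1 had 103 (rank 617). In replicate 2 the snt-4 site had rank 2247, outside its 1563 strongest. Within 2 kb but outside 500 bp were syd-1, rab-3, unc-57, unc-47, dgk-1 and vti-1, with signals from 63.1 at unc-47 to 120.6 at rab-3. The rab-3 summit lay 569 bp upstream of its start, just outside the window.

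**Figure D4:**
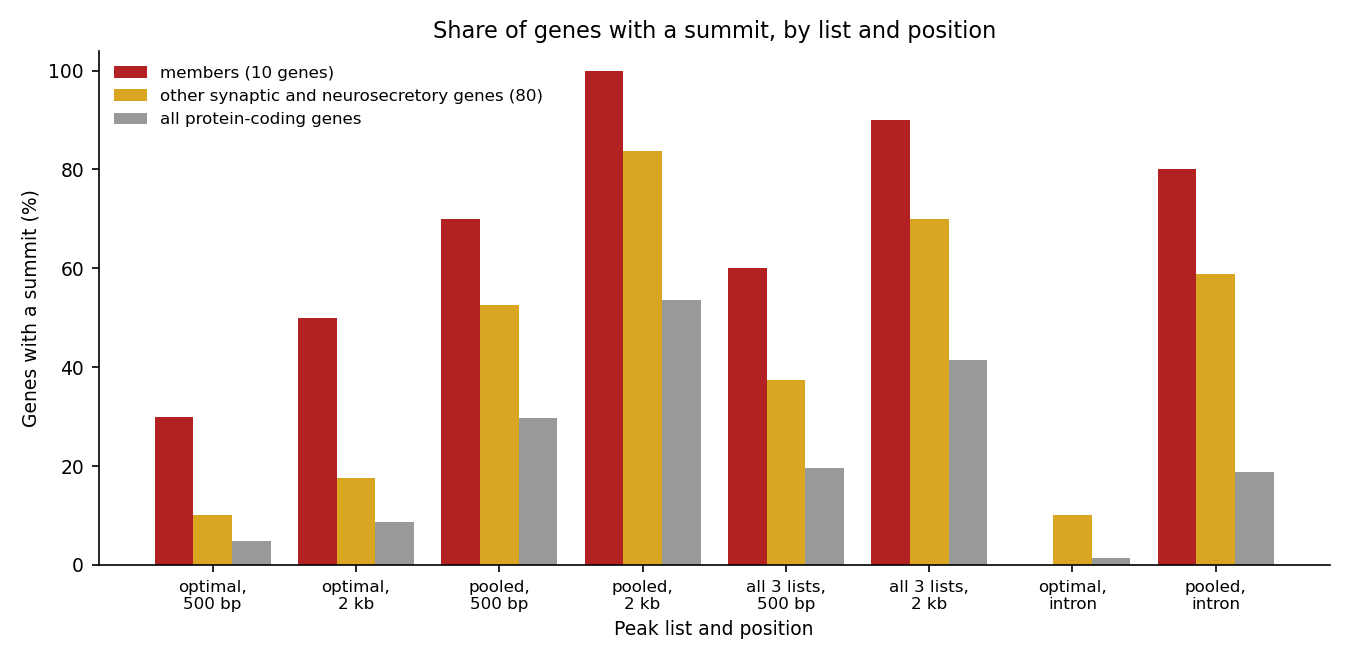
Bars give the percentage of genes with a summit by peak list and position, for the 10 members (red), the 80 other synaptic and neurosecretory genes (yellow) and all protein-coding genes (grey, 19973 genes, or 19286 with an intron). "All 3 lists" means a candidate in the pooled list and in each replicate. The red bar is the highest in every pair of list and position but the optimal intronic one, where it is 0.

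By rank over the pooled list and both replicates, the gene nearest to syd-2 was F09G2.2 (ranks 467, 623 and 439), with a largest absolute difference of 0.037 in log2 rank. The nearest to ric-19 was F37F2.2 (ranks 793, 612 and 1052, largest difference 0.139), and the nearest to egl-21 was mvk-1 (ranks 1541, 1324 and 1705, largest difference 0.109). Likeness was measured over these 3 lists only, of which the pooled one is made from the other 2.

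The distances have limits. Many worm transcripts are trans-spliced, so an annotated start can lie downstream of the place where transcription begins, and a summit upstream of it may be nearer to that place than the distance says. Peaks at syd-2, egl-3 and unc-64 had a noncoding RNA gene nearer than the member, and whether LSY-2 acts on either was not tested.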

How the data were processed

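ChIP-seq peak lists on ce11 were used, from 2 replicates of 1 group. Per the deposited text listings they derive from immunoprecipitation and control alignments. The aligner, peak caller and threshold are not given in the sources used here. The signal of each peak is the authors' own value, as deposited, and the -log10 q value is deposited beside it. Read depth is unknown, so no interval is given. The ce10 lists were not used here.

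Ranks follow signal within a list. Summits were assigned to starts and introns of protein-coding transcripts (Ensembl release 115, WBcel235) within 500 bp or 2 kb, every gene in reach counted. Sequence came from the RefSeq copy of WBcel235, and all peaks lay within its chromosomes. For signals and ranks at a site, replicate candidates were matched by overlap of at least 1 bp, the strongest taken. Counts over all 3 lists were made per gene and required no overlap. Python 3.11.15 and pandas 2.3.3 were used, and the assignment was tested on simulated summits. The members, the list of 80 genes and the 3 sequences were chosen with earlier results of these data known. Named genes were the members, genes sharing their summits, listed genes with an optimal summit within 500 bp, and for each member with one the gene of nearest ranks. Genes within 2 kb only, dense core vesicle genes without an optimal summit within 500 bp, and features singled out, were named after their values were seen. No test was made, since the design has 1 group. Alternatives were other windows, stronger peaks only, nearest-gene assignment, RefSeq starts, other overlaps and each replicate alone.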

Additional observations from a re-analysis of the deposited data

How the results depend on the processing

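With only the strongest 50% of the optimal peaks, 1 member (syd-2) had a summit within 500 bp, 2 (syd-2 and egl-3) within 2 kb, and 4 of the 80 other genes within 500 bp. With a 250 bp window, 2 members (ric-19 and egl-21) had an optimal summit, and syd-2 was lost. The same 2 had a candidate in all 3 lists within 250 bp. No member therefore met both the 250 bp window and the strongest 50% of the optimal peaks. With the stronger 50% of each candidate list, 4 members (snb-1, syd-2, ric-19 and egl-21) had one within 500 bp. The smaller lists and windows of these alternatives lower the counts by construction. With the 1563 strongest candidates of either replicate alone, the members within 500 bp were 2 to 3 (egl-21 was lost without replicate 1), those within 2 kb 4 in each case (unc-64 was lost without replicate 2, egl-21 without replicate 1), and the other genes 5 to 8 (ida-1, sbt-1 and aex-5 were lost without replicate 2, and snt-4 without replicate 1, where unc-43 was gained). Of 28 alternatives to the 5 counts, 23 were within 1.5 times the main value. A drop from 3 members to 2 falls within that bound. The 23 also include the intronic count of 0, which a smaller list or a stricter definition of introns could not change. No paired analysis was possible because the study has 1 group. Depth is unknown, and candidates of intermediate rank below the optimal list, such as those at snb-1, ric-4 and unc-13 (pooled ranks 2223, 2211 and 2356), cannot be called absent.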
